A study of Mus musculus with 2 samples.

Results

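The genes described here serve protein folding in the endoplasmic reticulum (ER) and the response to its overload. They were chosen by name from a list of 39 genes: a gene was taken where the array's annotation gave exactly that symbol to a probe set with no other gene. This found 38 of the 39 genes among 18194 genes measured, on 99 probe sets. The only gene without a probe set of its own was Sec61g. The samples are bone marrow neutrophils of C57BL/6, an inbred mouse strain, taken by flow cytometry as live cells with high Gr-1 staining and no CD48 in 2 independent experiments, and RNA from each was measured on 1 Affymetrix expression array. The arrays are called replicate 1 and replicate 2 after their titles. The cells were freshly isolated and untreated, all samples form 1 group, and how many mice stand behind each array, and of what age, is not stated in the labels.

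Secreted and membrane proteins enter the ER through the Sec61 channel, fold there with the help of chaperones, receive sugars and disulfide bonds, and are sent back to the cytosol for degradation when they fail to fold. When unfolded proteins build up, the sensors encoded by Ern1 (IRE1), Eif2ak3 (PERK) and Atf6 start the unfolded protein response, which works through the transcription factors XBP1, ATF4 and ATF6. Neutrophils fill their granules with proteins that pass through the ER while the cells mature in the marrow. XBP1 is needed in plasma cells, the antibody-secreting cells, and in eosinophil development, which is why markers of those cells were also read.

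ATF6 and XBP1 are known to act through the ER stress element (ERSE), which is CCAAT, a spacer of 9 bases of any kind, and CCACG. The element was searched on both strands in RefSeq promoter windows of GRCm38.p6, which run from 250 bases before to 50 bases after a transcription start. Windows were held for 33 of the 39 genes (all but Hyou1, Manf, Sec61a1, Ssr2, Derl1 and Atf6). The element was present in 9 of the 33 genes (27.3%), against 37 of all 27025 genes with a window (0.137%), so 9 of those 37 genes belong to this list. ERSE was first defined on chaperone promoters of this kind, among them those of Hspa5, Hsp90b1 and Calr, so its presence there restates what it was defined on. The stretches below are shown because they carry the letters by which these genes are known to be linked. Each runs 5′ to 3′ on the strand of the gene, lies before the start, and has the fixed letters of the element in capitals. An element on the opposite strand reads CGTGG first and ATTGG last.
Hspa5: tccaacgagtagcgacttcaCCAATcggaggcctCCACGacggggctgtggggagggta
Hsp90b1: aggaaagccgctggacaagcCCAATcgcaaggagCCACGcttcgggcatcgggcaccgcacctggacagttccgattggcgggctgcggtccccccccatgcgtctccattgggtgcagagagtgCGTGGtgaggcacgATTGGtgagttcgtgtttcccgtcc
Calr: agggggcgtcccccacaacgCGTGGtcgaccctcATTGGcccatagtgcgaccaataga
Canx: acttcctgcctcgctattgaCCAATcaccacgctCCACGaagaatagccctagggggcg
Pdia6: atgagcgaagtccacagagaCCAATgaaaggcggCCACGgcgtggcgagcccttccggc
Creld2: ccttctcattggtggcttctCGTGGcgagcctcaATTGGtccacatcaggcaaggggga
Dnajc3: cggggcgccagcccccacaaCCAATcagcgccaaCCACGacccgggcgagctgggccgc
Syvn1: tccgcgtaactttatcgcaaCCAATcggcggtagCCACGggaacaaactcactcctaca
Derl3: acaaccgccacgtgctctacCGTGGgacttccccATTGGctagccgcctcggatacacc
On GRCm38.p6 these stretches lie at chr2:34772005-34772063 (Hspa5, plus strand), chr10:86705513-86705676 (Hsp90b1, minus strand), chr8:84847055-84847113 (Calr, minus strand), chr11:50325780-50325838 (Canx, minus strand) and chr12:17266471-17266529 (Pdia6, plus strand). The others lie at chr15:88819500-88819558 (Creld2, plus strand), chr14:118937807-118937865 (Dnajc3, plus strand), chr19:6046512-6046570 (Syvn1, plus strand) and chr10:75893222-75893280 (Derl3, plus strand). Hsp90b1 was the only one of the 9 with 2 elements in its window, 1 on each strand.

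**Figure D1:**
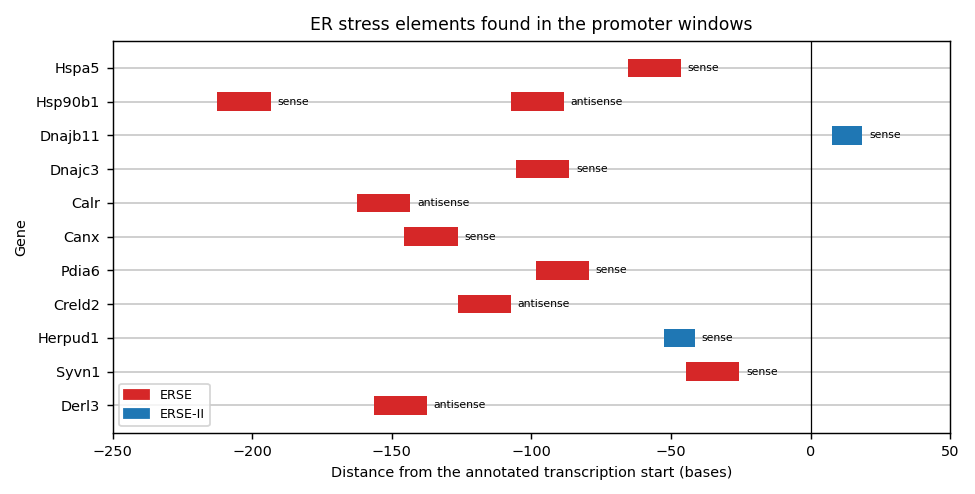
Position of ERSE (red) and ERSE-II (blue) in the promoter windows of the 11 genes that hold either, as distance in bases from the annotated start (vertical line at 0), with the strand of the element relative to the gene. All 10 ERSE matches in 9 genes lie before the start, and of the ERSE-II matches that of Herpud1 lies before it and that of Dnajb11 after it.

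The related element ERSE-II, which is ATTGG, 1 base of any kind, and CCACG, was found in 2 of the 33 genes (6.06%) and in 12 of all genes with a window (0.0444%). These genes were Herpud1 and Dnajb11, and the stretches are shown to set this element beside the first.
Herpud1: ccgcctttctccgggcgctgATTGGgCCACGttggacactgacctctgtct
Dnajb11: ATTGGcCCACG
The Herpud1 stretch lies at chr8:94386357-94386407 and the Dnajb11 element at chr16:22857852-22857862, both on the plus strand. The shorter letters CCACG, which end both elements, were present in 24 of the 33 genes (72.7%) and in 35.5% of all genes with a window. The letters TGACGTGG, a form of the XBP1 and ATF6 site called UPRE, were in none of the 33 windows and in 0.714% of all genes. The letters TGATGNAA (N for any base), found in sites of ATF4 with C/EBP proteins, were in the windows of Herpud1 and Trib3 (2 of 33, 6.06%) and in 4.51% of all genes. A match describes letters in the reference sequence, not binding in these cells.

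Values are MAS5 signals on a linear scale, already scaled by the authors to equal trimmed means. Signals of olfactory and other sensory receptor probe sets, of which 87 were measured, gave the background: a probe set was above background where its signal passed their 95th percentile (108 and 131 for replicates 1 and 2). For a gene to be called so, 1 of its probe sets had to pass on both arrays, and the gene's values are those of the brightest such probe set. All 10 neutrophil markers (Ltf, Camp, Ngp, Lcn2, S100a8, S100a9, Mmp8, Mmp9, Cxcr2 and Csf3r) were above background, their signals running from 7212 to 36507 on replicate 1 and, on replicate 2, from 3224 to 64632. The B cell list had none of 7 measured markers above background on both arrays, with signals summing to 471 and 708 on replicates 1 and 2, though Ms4a1, Pax5 and Cd22 passed on replicate 2 alone and Vpreb3 on replicate 1 alone. Of 6 plasma cell markers 1 was above it, Mzb1 (signals 184 and 209.8), while Jchain, Sdc1, Irf4, Prdm1 and Tnfrsf17 were below it on both arrays, and the list summed to 459.7 and 448. The list of eosinophils, basophils and mast cells had 1 of 6, Siglecf, T and NK cells 1 of 6, Cd3d, and stroma and endothelium 2 of 7, Col1a2 and Kdr. The monocyte list had 3 of 8 (Csf1r, Ccr2 and F13a1), the erythroid list 3 of 7 (Klf1, Epor and Tfrc) and the progenitor list 2 of 7 (Kit and Myb). Of 33 measured genes of other organs 4 (12.1%) were also above background: Apob, Myh7, Actc1 and Slc34a1. The highest signals of that list were 283 on replicate 1 and 282 on replicate 2. Calls at signals in that range, such as those of Mzb1, Kdr, Creld2 and Ppp1r15a, are therefore less firm. In RNA from many cells, fewer cells of a type and less RNA per cell cannot be told apart.

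Most ER genes were above background: 34 of the 38 measured, where 40.4% of all measured genes were. The 4 genes below it on at least 1 array were Sdf2l1, Pdia4, Derl3 and Trib3. Each difference is the log2 signal on replicate 2 less that on replicate 1. As each experiment has 1 array, no difference could be checked against replicates and none has a p-value. Of the 34 genes, 24 were higher on replicate 2 and 10 were lower, where 56.4% of all genes above background were higher. Their median difference was 0.28, and that of all 7354 genes above background was 0.07. Chaperones and disulfide isomerases were mostly higher on replicate 2, degradation genes lay on both sides of 0, and Eif2ak3, Ddit3 and Ppp1r15a were lower. These directions are relative to the authors' scaling. Scaled to the hybridisation controls, RNAs added in fixed amounts before hybridisation, the median of all genes was -0.65 and that of the 34 genes -0.44, and 6 of the 34 were then higher on replicate 2. With signals divided by each array's median 20 of the 34 were higher, where 44.6% of all genes were. Each of these scalings shifts every difference by an amount common to all genes. The distance of the ER genes' median above that of all genes, 0.21, therefore could not change under either.

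**Figure D2:**
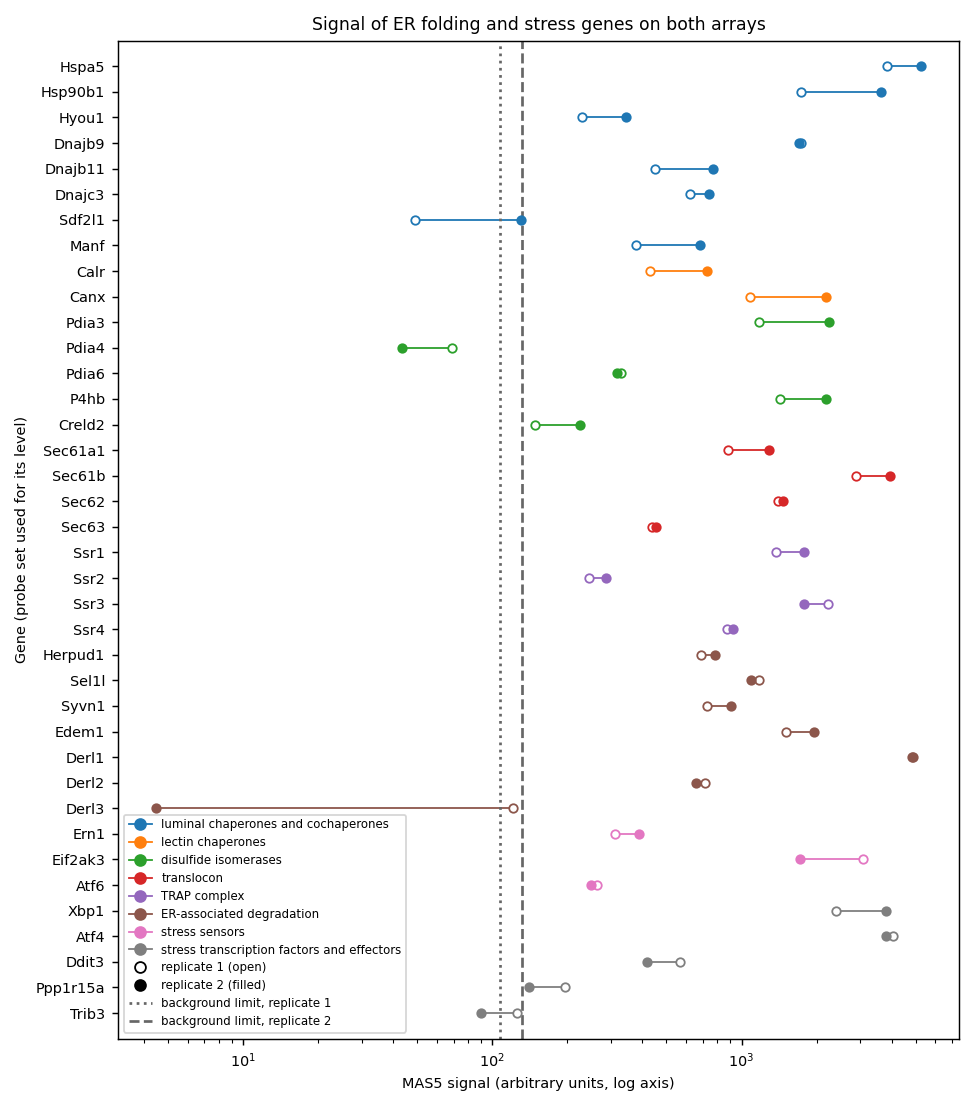
MAS5 signal (log axis) of the 38 measured genes on replicate 1 (open) and replicate 2 (filled), coloured by role, with the background limits of 108 (dotted, replicate 1) and 131 (dashed, replicate 2). All but Sdf2l1, Pdia4, Derl3 and Trib3 lie above both limits, and the bars of most chaperones reach to the right for replicate 2 while those of Eif2ak3, Ddit3 and Ppp1r15a reach to the left.

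Of 8 chaperone genes of the ER lumen 7 were above background, and 6 of these 7 were higher on replicate 2 (median difference 0.58, or -0.14 with scaling to the hybridisation controls). Hspa5, which encodes BiP, the Hsp70 of the ER, had signals of 3846 on replicate 1 and 5256 on replicate 2, a level of 12.13 ± 0.32 (log2, SD, n = 2). The difference of 0.45 was higher than that of 80.9% of all genes above background, and all 3 probe sets of Hspa5 were higher on replicate 2 (0.28 to 0.59). Hsp90b1, which encodes GRP94, the Hsp90 of the ER, had 1738 and 3612, a level of 11.29 ± 0.75 (log2, SD, n = 2). It was 2.08-fold higher on replicate 2, a difference of 1.06 that passed those of 97.3% of genes, and its other probe set gave 1.22. Both BiP and GRP94 genes were thus far above background on both arrays, with the distance between the arrays larger for Hsp90b1.

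The cochaperones set the pace of BiP or exchange its nucleotide. Dnajb11 (ERdj3) had signals of 448 and 766, a difference of 0.77. Dnajc3 (p58IPK, also an inhibitor of PERK) had 619 and 738, a difference of 0.25 on its brightest probe set, while its 5 probe sets ranged from 0.25 to 0.71. Hyou1 (GRP170), a nucleotide exchange factor of BiP, had 229.9 and 345, a difference of 0.58 read on a probe set that can bind several transcripts. Its other 2 probe sets were not above background on both arrays. Among the genes above background, such probe sets also gave the values of Canx, Sec63, Ssr3, Ssr4, Syvn1, Derl1, Xbp1 and Atf4. Manf, a secreted ER protein that binds BiP, had 377 and 679, a difference of 0.85. Dnajb9 (ERdj4), which restrains IRE1 through BiP, had 1731 and 1698 and differed by -0.03, the only one of the 7 without a higher signal on replicate 2. Sdf2l1, part of a complex with ERdj3, had 49.0 and 129.8, which lay below background on both arrays and close to the limit of 131.4 on replicate 2.

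The lectin chaperones, which hold glycoproteins by their trimmed sugars, were both higher on replicate 2, also with scaling to the hybridisation controls (Calr 0.04 and Canx 0.28 there). Canx (calnexin) had signals of 1085 and 2179, a level of 10.59 ± 0.71 (log2, SD, n = 2), and was 2.01-fold higher on replicate 2. A second probe set of Canx above background gave a like difference, 1.08 against 1.01. Calr (calreticulin) had 428 and 726, a difference of 0.76, and its 3 probe sets ranged from 0.31 to 0.76. Hsp90b1 and Canx were the only 2 of the 34 genes over 2-fold higher on replicate 2, and no gene was over 2-fold higher on replicate 1. Of all genes above background, 3.39% passed 2-fold in the first direction and 1.94% in the second. Canx passed this limit only narrowly, and with signals divided by the median of each array neither gene passed it.

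Among the genes of disulfide exchange 4 of 5 were above background, with a median difference of 0.61 (-0.12 with scaling to the hybridisation controls). Pdia3 (ERp57), the isomerase that works with calnexin and calreticulin, had signals of 1179 and 2237, a level of 10.67 ± 0.65 (log2, SD, n = 2). Its difference of 0.92 was larger than that of 95.6% of genes, on the only one of its 2 probe sets above background on both arrays. P4hb (protein disulfide isomerase) had 1425 and 2182, a difference of 0.62. Creld2, a stress-induced ER protein with isomerase activity, had 149 and 225, a difference of 0.60 near the background limit. Pdia6 stood apart from these 3 genes with 328 and 316, a difference of -0.06. Pdia4 (ERp72) was below background on both arrays, with 69.0 and 43.5 on its brighter probe set and 53.2 and 16.2 on the other.

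**Figure D3:**
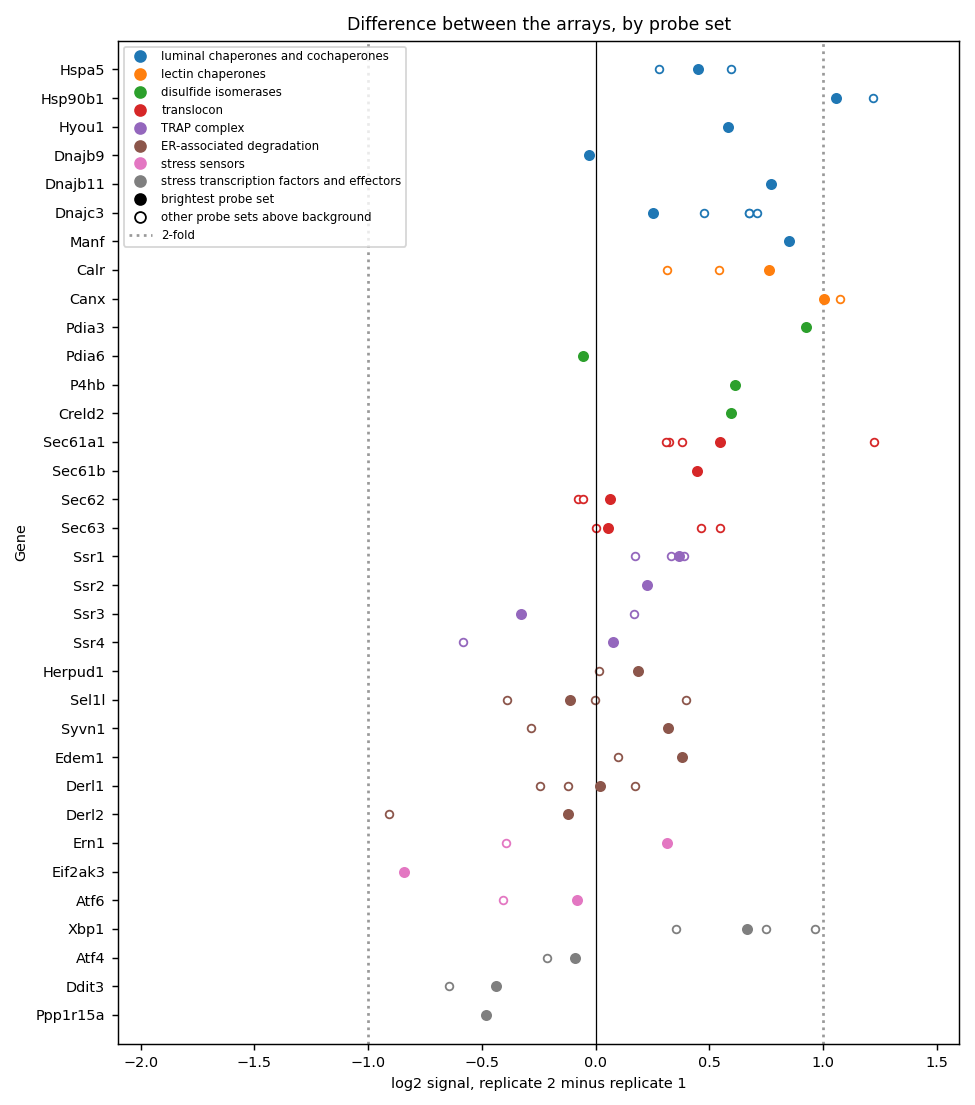
Difference in log2 signal (replicate 2 minus replicate 1) of every probe set above background on both arrays for the 34 genes, with the brightest probe set filled and the others open, coloured by role, and dotted lines at a 2-fold difference. The probe sets of Hspa5, Hsp90b1, Canx, Calr, Dnajc3, Sec61a1 and Xbp1 all lie right of 0, while those of Sel1l, Syvn1, Derl1, Ern1, Ssr3, Ssr4 and Sec62 lie on both sides.

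The translocation genes were above background in all 8 measured members. Their median differences were 0.25 for the channel genes and 0.15 for the TRAP complex (-0.47 and -0.57 with scaling to the hybridisation controls). Of the channel itself, Sec61a1, the pore subunit, had signals of 879 and 1283, and its 5 probe sets above background were all higher on replicate 2 (0.31 to 1.23). Sec61b, a small subunit, had 2889 and 3933, a difference of 0.45. Sec62 had 1405 and 1469 and Sec63 437 and 454, with differences of 0.06 and 0.05 on their brightest probe sets. The products of Sec62 and Sec63 join the channel for proteins that enter after synthesis. Probe sets above background ranged from -0.08 to 0.06 for Sec62 and from 0.003 to 0.55 for Sec63. Of the translocon-associated TRAP complex, Ssr1 had 1381 and 1781, with a difference of 0.37 and all 4 of its probe sets higher on replicate 2. Ssr2 had 245 and 287, a difference of 0.23, and Ssr4 877 and 924, a difference of 0.07, while the second probe set of Ssr4 above background gave -0.58. Ssr3 had 2230.2 and 1774, a difference of -0.33, but its second probe set gave 0.17. The channel's alpha and beta subunits thus lay on the side of the chaperones. Sec62 lay near the median of all genes and the TRAP genes on both sides of it. Sec63 lay near that median on its brightest probe set, with other probe sets up to 0.55.

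ER-associated degradation, which pulls misfolded proteins back into the cytosol, was above background in 6 of 7 genes with a median difference of 0.10 (-0.03 with median scaling and -0.62 with scaling to the hybridisation controls). Herpud1, a stress-induced organiser of the degradation complex, had signals of 687 and 782, a difference of 0.19. Syvn1 (HRD1), the ubiquitin ligase of that complex, had 724 and 904, a difference of 0.32, while its other probe set gave -0.28. Sel1l, the partner of HRD1, had 1179.6 and 1090.2, a difference of -0.11, with 4 probe sets from -0.39 to 0.40. Edem1, which trims mannose from proteins bound for degradation, had 1504 and 1960, a difference of 0.38. Derl1 had 4815 and 4879 and Derl2 713 and 656, with differences of 0.02 and -0.12. The second probe set of Derl2 above background gave -0.91, with signals of 288 and 153.5. Derl1 and Derl2 encode derlins, membrane proteins of the export route. Derl3, the third derlin, was above background on replicate 1 alone, with 121 and 4.49, and no fold is given because its signal on replicate 1 lay under the limit of replicate 2. None of the 6 genes above background differed over 2-fold.

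The sensors of the unfolded protein response were all above background and did not share a direction. Ern1 (IRE1), the kinase and nuclease that splices Xbp1 RNA, had signals of 312 and 388, a difference of 0.32, but its second probe set gave -0.39, so the direction for Ern1 depends on the probe set. Atf6, the sensor that is cut in the Golgi, had 264 and 249.7, a difference of -0.08, with -0.41 on its second probe set above background. Eif2ak3 (PERK), the kinase that slows translation by phosphorylating eIF2 alpha, had 3069 and 1709.6, a level of 11.16 ± 0.60 (log2, SD, n = 2). It was 1.80-fold higher on replicate 1. The difference of -0.84 was the lowest of the 34 genes, below which lay 3.44% of all genes, and it rested on 1 of 3 probe sets, the other 2 not being above background on both arrays.

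Downstream of the sensors, Xbp1 was higher on replicate 2, and Atf4, Ddit3 and Ppp1r15a were lower. Xbp1, the transcription factor activated by IRE1, had signals of 2395 and 3800.2, a level of 11.56 ± 0.47 (log2, SD, n = 2). Its difference was 0.67, and all 4 probe sets were higher on replicate 2 (0.35 to 0.97). Spliced and unspliced Xbp1 RNA were not told apart here. Atf4, the transcription factor translated when eIF2 alpha is phosphorylated, had 4044 and 3800.0, a difference of -0.09, with -0.21 on its second probe set above background. Ddit3 (CHOP), a factor induced by ATF4, had 568 and 419, a difference of -0.44, and -0.64 on its second probe set. Ppp1r15a (GADD34), which reverses the phosphorylation of eIF2 alpha, had 196 and 140.5, a difference of -0.48 close to the background limit of replicate 2. Trib3, an inhibitor induced by CHOP, passed background on replicate 1 alone, with 125 and 90.1. Eif2ak3, Atf4, Ddit3 and Ppp1r15a were thus all lower on replicate 2, none of them over 2-fold. These 4 kept that direction under each of the 8 other settings, as did Atf6, Derl2, Pdia6 and Sel1l, and with scaling to the hybridisation controls only 8.17% of all genes were higher on replicate 2. The 4 were set side by side after their values were seen, and 35.6% of all genes had a lower difference than Atf4.

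**Figure D4:**
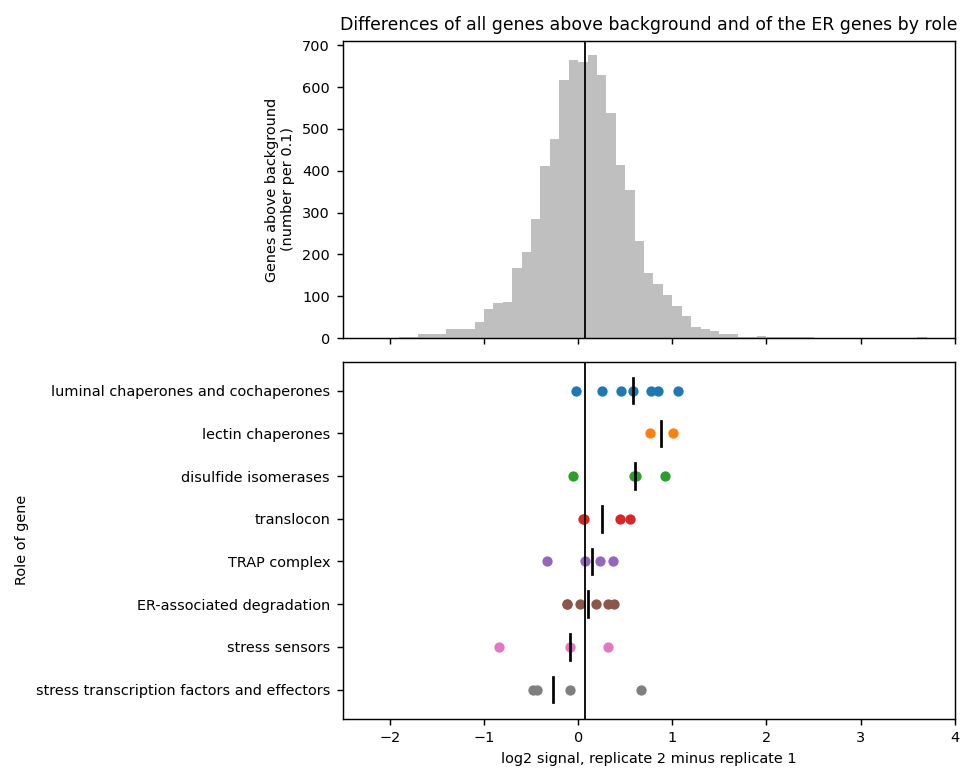
Top, number of genes above background by their difference in log2 signal (replicate 2 minus replicate 1, steps of 0.1) with their median of 0.07 as a line. Bottom, each of the 34 ER genes by role with the median of the role as a short bar: 0.58 for luminal chaperones, 0.88 for lectin chaperones and 0.61 for disulfide isomerases, against -0.08 for sensors and -0.26 for stress transcription factors and effectors.

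Grouped by the letters of their promoters, the 8 genes with ERSE that were above background had a median difference of 0.52, and 7 of the 8 were higher on replicate 2. The exception on the brightest probe sets was Pdia6. The direction of Syvn1 depends on the probe set, with 0.32 on the brightest and -0.28 on the other. With the less specific kind of probe set, as read for Hyou1 and Syvn1, left out, 6 of the 8 were higher and their median stayed 0.52. The 20 genes above background with a window but no ERSE had a median of 0.07, and 12 of the 20 were higher. Of all genes above background 56.4% were higher, so the count of the 20 lay near the general share. This describes genes on a pair of arrays, and no test was made. The group with ERSE is also largely the group of chaperones and isomerases. The distance between the medians was 0.45 and ranged from 0.39 to 0.57 under 7 other settings. Median scaling and scaling to the hybridisation controls are among these and could not change it, as each shifts every difference equally. Scaled to the hybridisation controls, 3 of the 8 genes and 2 of the 20 were higher on replicate 2, where 8.17% of all genes were. Dnajb11 and Herpud1, with ERSE-II, differed by 0.77 and 0.19. Derl3, whose window holds an ERSE, was not above background on both arrays.

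Markers of dividing cells moved with the arrays in the same direction as the chaperones. Of 15 cell division genes 8 were above background (Mki67, Top2a, Ccnb2, Ccna2, Aurka, Cdc20, Rrm2 and Pcna), where 40.4% of all measured genes were. All 8 were higher on replicate 2 (median difference 2.64), 6 of them over 2-fold. Among all genes above background these shares were 56.4% and 3.39%. Summed over the list, the signals came to 2347 and 11283 on replicates 1 and 2. The progenitor markers did not share a direction: Kit and Myb, above background on both arrays, differed by 1.16 and 1.90 and made most of the list's sums of 848 and 1735. Of the other 5, not above background on both arrays, Cd34 and Hoxa9 had a higher signal on replicate 2, while Flt3 (70.8 and 27.1), Gata2 (157 and 88.5) and Meis1 (97.7 and 77.1) had a lower one. The monocyte markers above background did not share a direction either. Csf1r, the M-CSF receptor gene, differed by -1.38, F13a1 by -0.19 and Ccr2 by 0.49. Csf1r, with signals of 5020 and 1928, made most of that list's sums of 5784 and 2701. A list of immediate-early genes, which also held the heat-shock genes Hspa1a and Hspa1b, lay in the direction of Ddit3 and Ppp1r15a. Of its 9 genes above background 8 were lower on replicate 2 (median -0.72), where 56.4% of all genes above background were higher. Hspa1b (-1.16) was among the 8, and Jun (0.14) was the exception. The list summed to 49777 and 34175. On the scaling of the authors, the neutrophil markers were higher in 8 of 10 genes, with the chemokine receptor gene Cxcr2 at -1.16 and the G-CSF receptor gene Csf3r at -0.77 as the exceptions. The part of any of these in the differences of the ER genes was not tested.

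The wider ER machinery was read from 10 further lists. Of their 113 measured genes 89 were above background, where 40.4% of all measured genes were. Of the 89 genes, 57 were higher on replicate 2 (median 0.19), 4 of them over 2-fold, and none was over 2-fold higher on replicate 1. Among all genes above background the shares were 56.4%, 3.39% and 1.94%, so these counts lay near the general share. Signal recognition and signal peptidase genes were above background in 12 of 13 (median 0.24). Srp9 had signals of 2153 and 2140.3, Srp14 3639 and 3534 and Srp19 882 and 1315. Their products belong to the particle that brings ribosomes to the ER. The differences of this list ran from -0.28 (Srpr, its receptor) to 0.60 (Spcs2, of the signal peptidase).

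The enzymes that attach and read sugars were also mostly above background. The oligosaccharyltransferase, which transfers the sugar chain to new proteins, had 9 of 12 genes above it and a median of 0.42. Rpn1 had 1217 and 2438 and was just over 2-fold higher on replicate 2 (difference 1.00), Ddost had 461 and 811, and Tmem258 was lowest at -0.59. Rpn2 was above background on replicate 2 alone, with 18.9 and 210.0. In glycoprotein quality control 7 of 10 were above background (median 0.18). Uggt1, the folding sensor that puts glucose back, had 481 and 418, Ganab, a glucosidase subunit, 315 and 413, and Prkcsh, its partner, 155 and 307. Prkcsh was highest in that list at 0.99 and Edem2 lowest at -0.28.

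Further degradation genes were above background in 13 of 13, with a median of 0.05 and none over 2-fold apart. Os9 had signals of 798 and 752, Erlec1 249.5 and 209.8, and Vcp, the ATPase that extracts proteins from the membrane, 2053 and 2429. The list ran from -0.64 (Ngly1) to 0.60 (Ube2j2). Of the further oxidative folding genes 6 of 12 were above background, a share near that of all genes. Ero1a, the oxidase that recharges protein disulfide isomerase, had 986 and 2167 and was over 2-fold higher on replicate 2 (1.14), and Ero1b had 303 and 454. Pdia5 was below background with 8.14 and 9.29, and Erp29 was lowest at -0.50.

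Targets of the integrated stress response, the programme started by phosphorylated eIF2 alpha, were above background in 9 of 14, and 5 of the 9 were lower on replicate 2 (median -0.32). Asns (asparagine synthetase) had signals of 319 and 836 and was over 2-fold higher on replicate 2 (1.39), against the direction of Chac1, with 290.2 and 199, and of Ddit4, the lowest at -0.74. Atf3 was above background on replicate 1 alone, with 156 and 80.2. A list of eIF2 alpha kinases, phosphatase genes and subunits of the factor eIF2B had 5 of 7 above background (median -0.05). Eif2ak1 had 242 and 203, lowest in its list at -0.25, and Eif2ak2 374 and 425. Eif2ak4 was below background with 54.0 and 43.1, while Eif2b5, of eIF2B, was highest at 0.64. PERK was therefore not the only kinase of eIF2 alpha with a signal above background, and its difference of -0.84 lay outside the range of this list.

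Other genes of the unfolded protein response were above background in 9 of 10 (median 0.27). Mbtps1 and Mbtps2, the proteases that cut ATF6, had signals of 358 and 348 and of 238 and 327, and Creb3 979 and 834. The list ran from -0.97 (Map3k5, the kinase ASK1) to 0.59 (Atf6b). In ER calcium handling 8 of 9 were above background (median 0.41). The calcium pumps Atp2a2 and Atp2a3 had 645 and 1289 and, in turn, 1389.7 and 1979, and Itpr2, a calcium release channel, 604 and 581. Rcn1 was highest at 1.17 and Sdf4 lowest at -0.25. Of the COPII coat, which carries cargo out of the ER, and the KDEL receptors, which return escaped chaperones, 11 of 13 were above background (median 0.28). Sec23a had 922 and 1054, Sec23b 558 and 709 and Sec24a 231 and 290.2, with Sec13 highest at 0.63 and the receptor gene Kdelr1 lowest at -0.11.

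The median difference of the ER genes under each way of scaling and reading the arrays is plotted beside that of all genes.

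**Figure D5:**
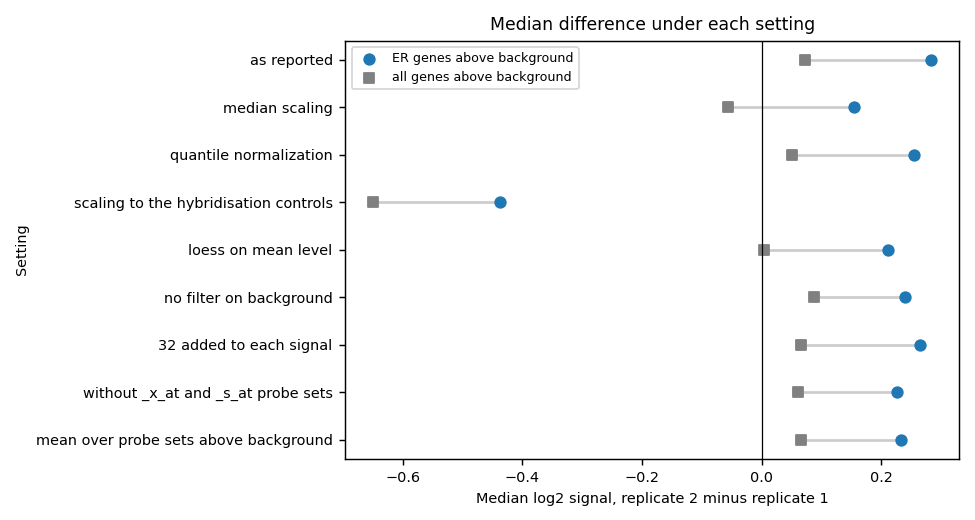
Median difference in log2 signal (replicate 2 minus replicate 1) of the ER genes above background (circles) and of all genes above background (squares) as reported and under 8 other settings. The circle lies right of the square under each of them, and scaling to the hybridisation controls moves both below 0, to -0.44 and -0.65. Median scaling and scaling to the hybridisation controls cannot change the distance between circle and square.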

How the data were processed

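Signal intensities of 45101 probe sets on 2 arrays were deposited on a linear scale. According to the submitters' processing notes the authors used MAS5 (no version or settings stated there). Checked on the values, the mean without the lowest and highest 2% was 250.002 on both arrays. Names came from the platform annotation in GEO, and only the 34958 with 1 gene were used. Levels are log2 of the signal (at least 1) on the gene's brightest probe set above background on both arrays, or of its brightest where none was. No comparison between groups exists, so no test was made, and genes are called by their side of the background limit and by a 2-fold difference. The number of arrays limits the precision. The genes and the lists were chosen with earlier results of these data known. All listed genes are named. Of each of the 10 further lists the first 3 measured and the extreme genes are named. Alternatives were 8 settings for differences and 7 for background. The calculation of differences and of 2-fold calls was checked on simulated arrays with shifts of known size. Background calls were not checked in this way, and such a check tests the calculation and not the differences reported here. Promoter windows come from RefSeq (GRCm38.p6). Python 3.11.15, pandas 2.3.3, numpy 2.4.6 and statsmodels 0.14.6 (loess) were used.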

Additional observations from a re-analysis of the deposited data

Results flagged for a closer look

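A probe set outside the values above names Sec61g, the small gamma subunit of the ER channel, together with the predicted genes Gm11575 and Gm10177. Its signals were 904 on replicate 1 and 1134 on replicate 2, above the background limits of 108 and 131. No value is given to Sec61g, since the probe set can bind RNA of any of the 3 genes.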

How the results depend on the processing

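The count of 34 genes above background stayed between 29 and 34 under other limits and probe set rules. It was 34 with replicate 1 left out and 36 with replicate 2 left out. The share of all genes above background ran from 28.2% to 45.4% under those limits and rules. With replicate 1 or replicate 2 left out it was 44.2% or 46.3%. The lowest count came from asking for most of a gene's probe sets. The median difference of 0.28 became 0.15 with median scaling and -0.44 with scaling to the hybridisation controls, and moved by less than 0.1 under the other 6 settings. The 2 genes over 2-fold apart became 0 with median scaling, 4 with scaling to the hybridisation controls (Eif2ak3, Ddit3, Ppp1r15a and Ssr3, all 4 higher on replicate 1), 4 without the background filter, where Sdf2l1 and Derl3 lay below background on at least 1 array, and 1 with 32 added to each signal. Under median scaling and under scaling to the hybridisation controls each difference shifted by an amount common to all genes. No paired analysis was possible because there is 1 group. Leaving out a replicate leaves no difference. Creld2 and Ppp1r15a lay little above the background limit, and Sdf2l1 and Trib3 below it on replicate 2.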
